A study of Rattus norvegicus with 4 samples.

Results

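Prostaglandins are lipid signals made from arachidonic acid. The genes described here are 10 genes of their synthesis, breakdown and sensing, chosen by name: Pla2g2a, Ptgs1, Ptgs2, Ptges, Ptgis, Ptgds, Hpgd, Ptger2, Ptger3 and Ptger4. Of these, 8 were matched by symbol among the 30560 genes of the count tables, while Ptges and Ptgis are not analysed here. The tissues were subcutaneous fascia and skin of wild-type (WT) rats, with 2 libraries each, in a series on the fascia of the abdominal midline, and no treatment, age or strain is given in the labels used here. Whether the 2 libraries of a tissue are from different animals is not stated in the labels, so the p-values measure the spread between libraries, which may be technical.

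As background, a phospholipase such as the secreted enzyme Pla2g2a frees fatty acids from membrane lipids. The cyclooxygenases Ptgs1, widely regarded as the constitutive form, and Ptgs2, the form induced by cytokines and injury, turn arachidonic acid into prostaglandin H. Terminal synthases such as Ptgds make the individual prostaglandins, Hpgd inactivates them, and Ptger2, Ptger3 and Ptger4 are receptors of prostaglandin E. In skin, prostaglandins are known for their part in inflammation, pain, blood flow and healing.

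Each library was a droplet-based single-cell library read from the 3′ end (10x Genomics), and its values are UMI counts, in which each captured RNA molecule of a gene is counted a single time per cell. The tissues were minced and digested with collagenase and elastase at 37 °C, red cells were lysed and dead cells were removed, per the labels. After filtering, 6602 and 6820 cells remained in fascia replicates 1 and 2, and 7015 and 14279 in skin replicates 1 and 2. Cells had a median of 12680 and 10330 UMIs in fascia, against 8859 and 2457 in skin, so skin replicate 2 was the shallowest. Between 17 and 45 barcodes were shared by any pair of libraries. Keratinocyte markers matched the labels: 19 of these genes summed to 24.9 and 44.2 CPM (a gene's UMIs scaled to the same fixed total in every sum) over all fascia cells, against 31382 and 34215 CPM over all skin cells.

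The cells fell into 41 clusters, made without the prostaglandin and leukotriene genes, and 33 of them were named from cell type markers or placed in a lineage. Cells were summed per class and library. The classes compared between tissues were fibroblasts (2544 and 731 cells in fascia, 324 and 427 in skin), mural cells (1264 and 1980, 77 and 280), blood endothelial cells (612 and 1030, 147 and 462), macrophages or monocytes (967 and 1109, 44 and 35), dendritic or Langerhans cells (193 and 643, 73 and 21) and T or NK lymphocytes (258 and 613, 86 and 177). Cells in unnamed clusters numbered 309 and 380 in fascia, against 378 and 4427 in skin. In skin replicate 2, clusters 3 and 10 (2212 and 1175 cells) carried keratinocyte genes beside fibroblast or mural genes and were left unnamed.

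The stretches around the start sites of the 2 cyclooxygenase genes are shown because the levels of the 2 enzymes, which do the same reaction, were distributed differently over the cells and tissues. Each runs from 250 bases before to 50 bases after the start site, 5′ to 3′ on the gene's strand, from RefSeq on the build GRCr8. Capitals mark matches to 6 short motifs searched on both strands: TATAAA (the TATA box), TGACGT (part of the CREB site), TGANTCA (the AP-1 site), CACGTG (an E-box), CCAAT (the CCAAT box) and GGGCGG (the Sp1 box).
Ptgs2 promoter (chr13:64713813-64714112, plus strand): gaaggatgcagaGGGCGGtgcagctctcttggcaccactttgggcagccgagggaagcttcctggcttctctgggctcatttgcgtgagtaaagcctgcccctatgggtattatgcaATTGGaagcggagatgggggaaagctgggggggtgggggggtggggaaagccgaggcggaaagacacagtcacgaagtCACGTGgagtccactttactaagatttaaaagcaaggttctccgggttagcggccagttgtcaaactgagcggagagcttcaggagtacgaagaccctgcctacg
Ptgs1 promoter (chr3:39981169-39981468, plus strand): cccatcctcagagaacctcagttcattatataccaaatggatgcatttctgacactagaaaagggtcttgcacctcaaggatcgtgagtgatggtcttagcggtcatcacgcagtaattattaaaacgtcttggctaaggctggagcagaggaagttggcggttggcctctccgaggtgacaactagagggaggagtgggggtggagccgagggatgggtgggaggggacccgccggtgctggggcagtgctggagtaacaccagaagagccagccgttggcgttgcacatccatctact

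The Ptgs2 stretch held CACGTG with its first base at -55 from the start site, CCAAT on the reverse strand at -133 and GGGCGG at -238. These letters occur in 6.42%, 37.5% and 33.1% of the 33469 rat stretches of the same length. The Ptgs1 stretch held no match to the 6 motifs. A match describes the letters in the window and nothing else.

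The genes' UMIs lay in different cells in the 2 tissues. In fascia, fibroblasts held 91.4% and 90.8% of all Pla2g2a UMIs, 95.7% and 91.5% of Ptgs2 UMIs, and 93.9% and 89.2% of Hpgd UMIs. Macrophages or monocytes held 91.7% and 78.2% of Ptger3 UMIs there. In skin, keratinocytes held 42.9% and 72.1% of the Ptgs2 UMIs, and 68 mast cells held a further 1283 of 5126 in replicate 1. Ptgs1 had no single source: in fascia replicate 1 fibroblasts held 83.1% and blood endothelial cells 8.81%, while in fascia replicate 2 fibroblasts held 24.8% and blood endothelial cells 59.5%.

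**Figure D1:**
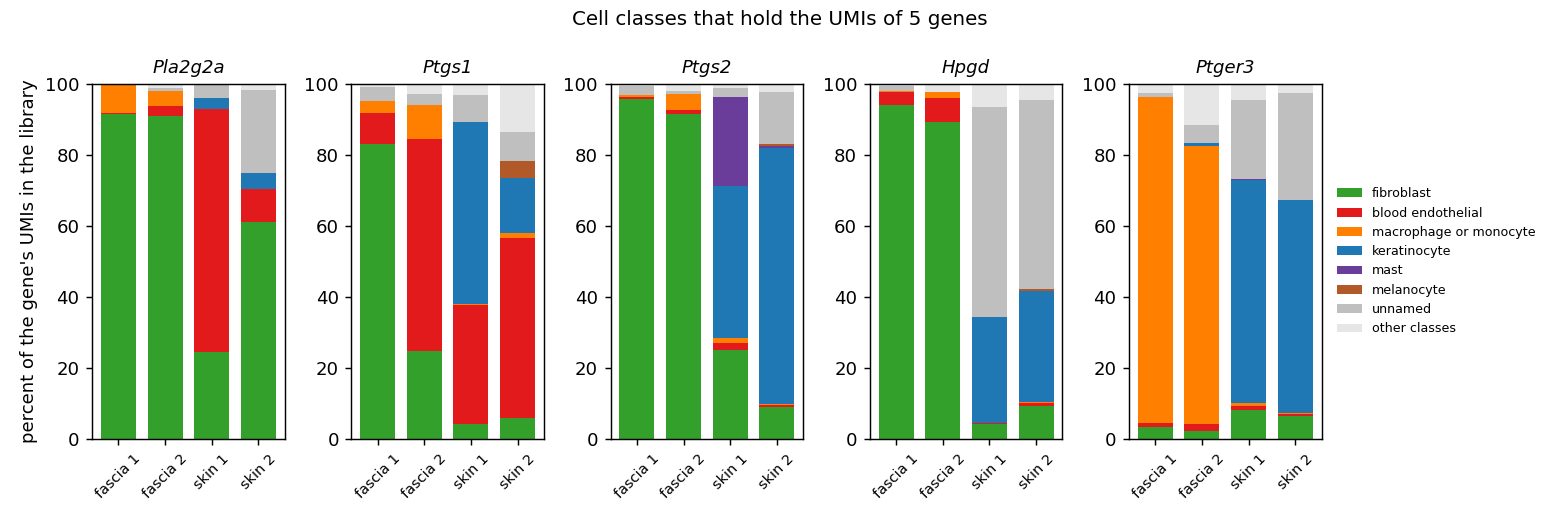
Share of each gene's UMIs (percent of the library's total for that gene, y axis) held by each cell class in the 4 libraries. In fascia, fibroblasts hold 89.2% or more of Pla2g2a, Ptgs2 and Hpgd, and in skin keratinocytes hold 42.9% and 72.1% of Ptgs2.

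Single genes were tested within each class with edgeR's quasi-likelihood test on summed counts, adjusted by the Benjamini-Hochberg method over all genes of a class. Of the 8 genes, 5 passed the filter on low counts in fibroblasts and 2 were called (10.2% of all genes tested there were called, 3.04% higher and 7.16% lower in fascia). In blood endothelial cells 2 of 5 were called (background 21.3%, with 8.26% higher and 13.1% lower), and in macrophages or monocytes 1 of 6 (3.89%, with 0.922% higher and 2.97% lower). None was called among 2 in mural cells (15.6%, with 5.77% higher and 9.85% lower) or 1 in T or NK lymphocytes (17.8%, with 7.08% higher and 10.7% lower) by edgeR. At an unadjusted p under 0.05 the counts there were 2 and 0, and DESeq2 called 0 and 1. No gene passed the filter in dendritic or Langerhans cells, where 9.20% of tested genes were called, 2.80% higher and 6.40% lower. That class leaves out cluster 24, led by the Langerhans cell marker Cd207, which had 161 and 382 cells in skin and none in fascia and was left unnamed because it also carried keratinocyte markers. At Leiden resolution 2.0 the class had 163 and 52 skin cells. Over all cells 2 of 8 were called, against 38.3% of all genes, 19.4% higher and 18.9% lower. In these sums, fewer cells of a type and less RNA per cell cannot be told apart.

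**Figure D2:**
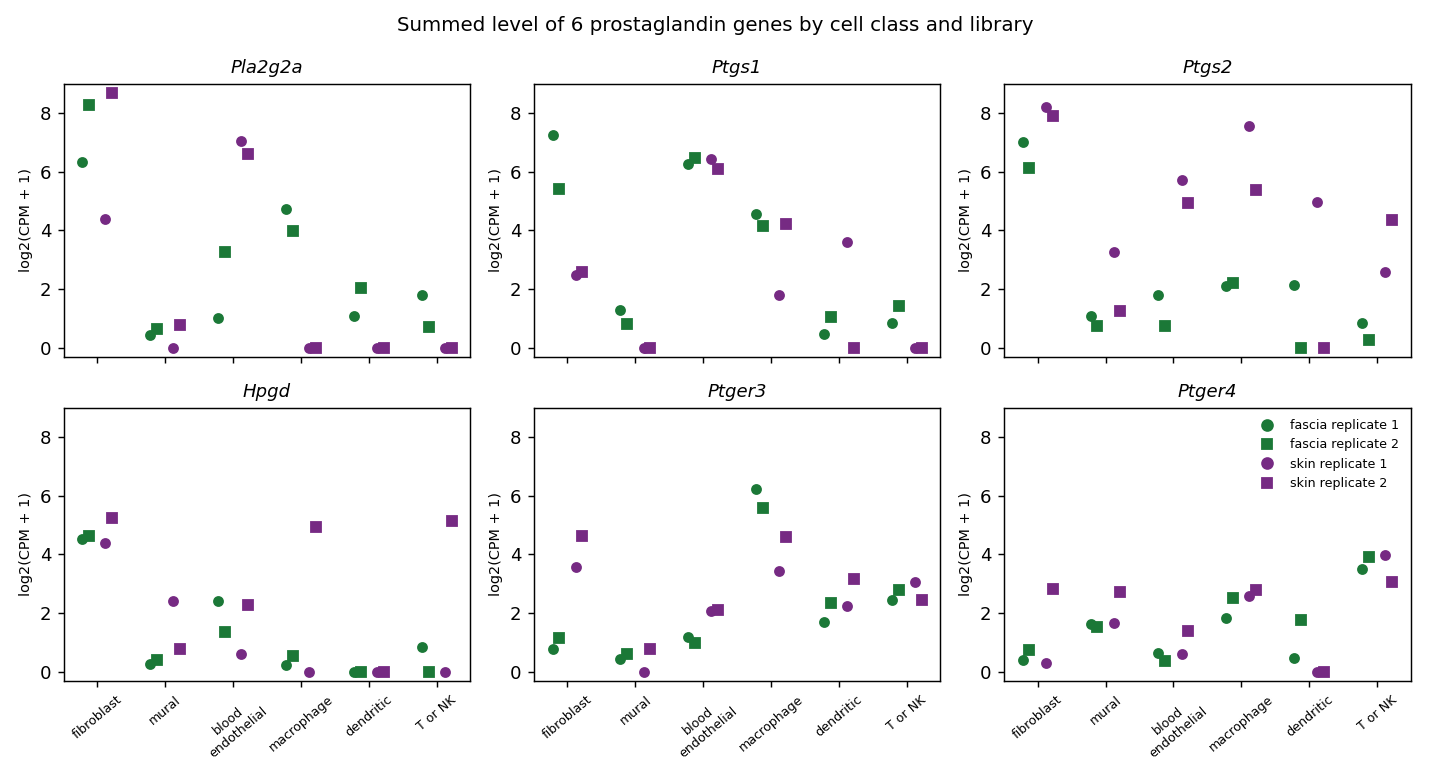
Summed level, log2(CPM + 1), of 6 genes (panels) in 6 cell classes, one point per library, fascia in green left of skin in purple. Ptgs1 in fibroblasts is higher in both fascia libraries than in both skin libraries, and in blood endothelial cells the libraries overlap.

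Pla2g2a, a phospholipase secreted into the tissue fluid, lay mostly in fibroblasts in both fascia libraries and in skin replicate 2, while in skin replicate 1 blood endothelial cells held 68.5% of its UMIs and fibroblasts 24.4%. In fibroblasts it had 79.6 and 308 CPM in fascia, against 20.2 and 406 CPM in skin. The tissues overlapped, and the log2 change of -0.33 (SE 1.29, edgeR adjusted p = 0.89) was smaller than the spread between libraries. Leaving out fascia replicate 1 gave a log2 change of 0.35, and leaving out skin replicate 2 gave 2.72.

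The clusters within the fibroblasts separated these levels. Cluster 11, led by Stmn2, Cxcl13, Myoc and Sfrp2 and with Pla2g2a itself among its top genes although it was left out of the clustering, had 414 and 957 CPM of Pla2g2a in fascia, against 695 CPM in skin replicate 2. Its skin replicate 1 cells, 9 in all, were too few to give a level. Cluster 2, led by Mrgprg, Fndc1, Mfap5 and Pi16, had 5.11 and 43.3 CPM in fascia and 1 cell in skin. Cluster 25, a skin cluster led by Igfbp2 and Col1a1, had 14.9 and 5.13 CPM in skin. Cluster 11 made up 558 of 2544 and 208 of 731 fibroblasts in fascia, against 9 of 324 and 273 of 427 in skin, and the libraries with the larger cluster 11 share had the higher Pla2g2a level.

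In blood endothelial cells Pla2g2a was lower in fascia, with 1.03 and 8.60 CPM, against 131 and 95.7 CPM in skin. The log2 change was -4.96 (SE 0.80, edgeR adjusted p = 0.012). The skin cells were mostly of cluster 23, led by Csf3, Selp and Sele, which held 121 of 147 and 441 of 462 cells, while fascia had none of this cluster and its cells were of clusters 12 and 17. Few cells carried the gene: 6 of 612 and 9 of 1030 cells had a UMI in fascia, against 10 of 147 and 54 of 462 in skin. A single cell held 64 of 114 UMIs in fascia replicate 2, and another 137 of 244 in skin replicate 1.

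Fascia macrophages or monocytes also carried Pla2g2a, at 25.7 and 14.7 CPM, against no UMI in skin. With 44 and 35 skin cells, 3 counts would have been 7.41 and 17.6 CPM, so the level of fascia replicate 2 lay below what skin replicate 2 could show. The edgeR adjusted p was 0.091. Fibroblast RNA in the fascia macrophages, read from 16 fibroblast markers, amounted to 1.43% and 0.650% of the level in fibroblasts. That share of the fibroblast level of Pla2g2a comes to 1.14 and 2.00 CPM. Over all cells Pla2g2a had 41.1 and 50.3 CPM in fascia, against 4.44 and 24.5 CPM in skin (log2 change 1.44, SE 0.77, edgeR adjusted p = 0.19), and it was called without skin replicate 2 (3.10, adjusted p = 0.015).

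Ptgs1, the constitutive cyclooxygenase, was higher in fascia fibroblasts. It had 151 and 42.0 CPM in fascia fibroblasts, against 4.64 and 4.97 CPM in skin fibroblasts, and the tissues did not overlap. The log2 change was 3.95 (SE 0.73, edgeR adjusted p = 0.041). Both skin libraries were near the bottom of the range, and the fascia libraries differed from each other more than the skin libraries did. The call was lost without fascia replicate 1 (log2 change 2.78, adjusted p = 0.090), without skin replicate 1 (4.10, adjusted p = 0.092) and without skin replicate 2 (3.83, adjusted p = 0.057). The fit without fascia replicate 1 called 0 of 12053 genes by edgeR, with 1731 at an unadjusted p under 0.05, while those without skin replicates 1 and 2 called 1125 of 13494 and 2737 of 13436.

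Within fascia, Ptgs1 followed the clusters in the opposite way to Pla2g2a. It had 184 and 58.1 CPM in cluster 2 and 117 and 58.4 CPM in cluster 33, which shares leading genes with cluster 2. In cluster 11 it had 5.27 and 2.69 CPM in fascia, against 3.67 CPM in skin replicate 2. The skin cluster 25 had 4.74 and 6.84 CPM. Cluster 28, a fascia cluster of few UMIs with fibroblast genes that was left unnamed, had 262 and 120 CPM. When cells were thinned to 2000 UMIs each, 4 of 595 fibroblasts with a Ptgs1 UMI also had a Pla2g2a UMI in fascia replicate 1 (0.672%), against 6.73% of those without a Ptgs1 UMI. In fascia replicate 2 it was 0 of 53, against 15.1%.

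**Figure D3:**
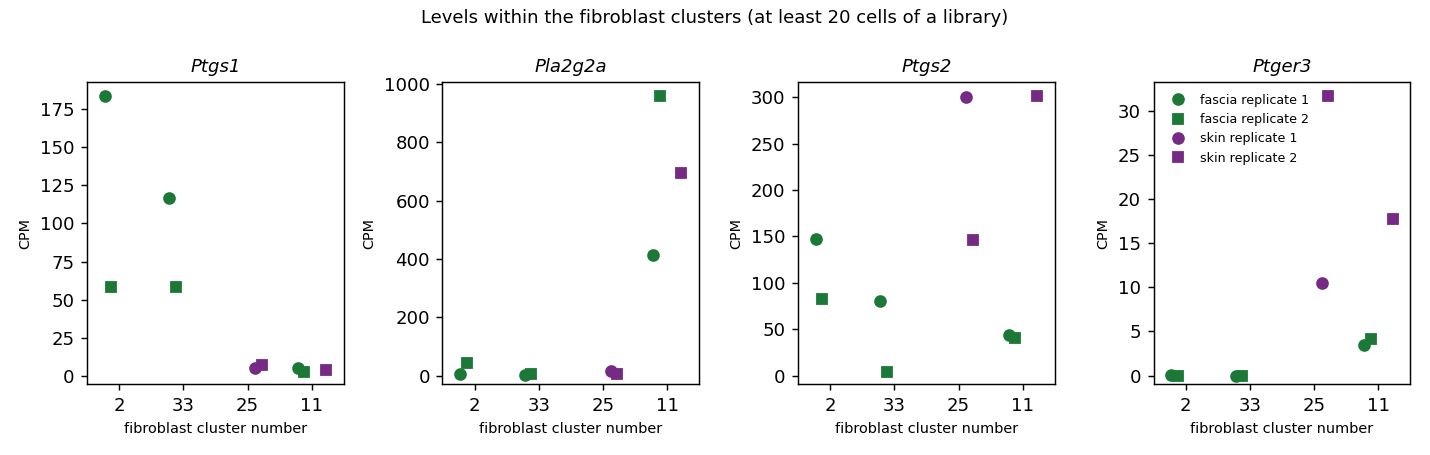
CPM of 4 genes in the fibroblast clusters 2, 33, 25 and 11, one point per library with at least 20 cells of the cluster, fascia left of skin. Ptgs1 lies at 58.1 CPM or more in clusters 2 and 33 and under 7 CPM in clusters 11 and 25, while Pla2g2a is at 414 to 957 CPM in cluster 11.

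Blood endothelial cells had like Ptgs1 levels in the 2 tissues, with 76.0 and 87.7 CPM in fascia, against 86.0 and 67.3 CPM in skin. The log2 change was -0.40 (SE 0.26, edgeR adjusted p = 0.29), and the libraries overlapped. Its sign changed when marked doublets were kept (0.35) and at Leiden resolution 2.0 (0.21). Fascia cluster 17, led by Mecom, Cytl1 and Ackr1, had 143 and 120 CPM. Cluster 12, led by Plvap, Gpihbp1 and Emcn, had 51.2 and 49.1 CPM in fascia, so the 2 fascia clusters did not overlap. The skin cluster 23 had 86.4 and 69.0 CPM.

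Macrophages or monocytes had 22.5 and 16.8 CPM of Ptgs1 in fascia, against 2.47 and 17.6 CPM in skin, where the levels rested on 1 and 3 UMIs (log2 change 1.21, SE 0.75, edgeR adjusted p = 0.36). Mural cells were near 0, with 1.46 and 0.767 CPM in fascia, against no UMI in skin. Over all cells, Ptgs1 had 85.5 and 25.1 CPM in fascia, against 5.95 and 3.17 CPM in skin (log2 change 3.38, SE 0.74, edgeR adjusted p = 0.025). Without skin replicate 1 or 2 the adjusted p was 0.080 or 0.10. In skin replicate 1, keratinocytes held 51.4% of the Ptgs1 UMIs, and cluster 21, led by Krt77 and Krt1, had 36.2 CPM in that library and no UMI in skin replicate 2.

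Ptgs2, the inducible cyclooxygenase, had a lower level in fascia fibroblasts in every library but did not pass the test. The fibroblast levels were 127 and 68.3 CPM in fascia, against 297 and 236 CPM in skin. The tissues did not overlap, and the log2 change was -1.84 (SE 0.41, edgeR adjusted p = 0.058). DESeq2 called it, as did edgeR without skin replicate 2 (log2 change -2.15, adjusted p = 0.018).

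In the shared fibroblast cluster 11, Ptgs2 had 44.1 and 40.0 CPM in fascia, against 301 CPM in skin replicate 2. Cluster 2 had 147 and 82.1 CPM in fascia, so the cluster with high Ptgs1 also had more Ptgs2 than cluster 11 in both fascia libraries. The skin cluster 25 had 301 and 146 CPM. In thinned cells of fascia replicate 1, 19.5% of fibroblasts with a Ptgs1 UMI had a Ptgs2 UMI, against 15.6% of the others. In fascia replicate 2 these shares were 7.55% and 7.87%.

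Blood endothelial cells had almost no Ptgs2 in fascia, with 2.51 and 0.679 CPM, against 51.0 and 29.5 CPM in skin. The log2 change was -5.26 (SE 0.63, edgeR adjusted p = 0.0054). The skin level rested on few cells in replicate 1, where 11 of 147 cells had a UMI and 1 cell held 63 of the 95 UMIs. Without that cell's UMIs, 17.2 CPM remained. In skin replicate 2, 45 of 462 cells had a UMI. Keratinocyte markers in these endothelial cells were at 3.34% and 19.5% of their level in skin keratinocytes, and that share of the keratinocyte Ptgs2 level comes to 1.19 and 19.1 CPM. In skin replicate 1, mast markers in these endothelial cells were at 0.119% of their mast cell level. That share of the mast cell Ptgs2 level comes to 5.00 CPM. The part of free RNA in the result was not tested beyond these values.

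Macrophages or monocytes had 3.26 and 3.64 CPM of Ptgs2 in fascia, against 185 and 41.0 CPM in skin. The log2 change was -5.44 (SE 0.62, edgeR adjusted p = 0.0063). In skin, 6 of 44 and 4 of 35 cells carried all 75 and 7 UMIs. The call was lost without skin replicate 1 (log2 change -3.65, adjusted p = 0.058). Most fascia cells were of cluster 7, led by C1qb and Fcna, and most skin cells of cluster 20, led by S100a9 and Lyz2. Within cluster 20, Ptgs2 had 20.7 and 4.83 CPM in fascia, against 189 and 41.0 CPM in skin (log2 change -4.00, SE 0.84, edgeR adjusted p = 0.040, with 5.92% of genes called). This comparison within 1 cluster was chosen after seeing the data.

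The highest Ptgs2 level of any class lay in the mast cells of skin. The 68 mast cells of skin replicate 1 had 4207 CPM (1283 UMIs), and 65 of them had a UMI. The 7 mast cells of skin replicate 2 had 46 UMIs, and 1 fascia cell in the mast cluster had 6. Keratinocytes had 35.8 and 98.0 CPM, with 153 and 212 CPM in cluster 5, led by Ly6d and Krt15, and 80.5 and 106 CPM in cluster 8. Melanocytes of skin replicate 2 had 125 CPM on 44 UMIs, of which 1 cell held 17, and 76.6 CPM remained without that cell's UMIs. Keratinocyte markers in these melanocytes were at 48.2% of their keratinocyte level, and that share of the keratinocyte Ptgs2 level comes to 47.3 CPM. Skin dendritic or Langerhans cells had 30.2 CPM in replicate 1, on 16 UMIs, and no UMI in replicate 2. Over all cells Ptgs2 had 62.8 and 11.1 CPM in fascia, against 64.0 and 97.3 CPM in skin (log2 change -1.33, SE 0.83, edgeR adjusted p = 0.25), and it was called without fascia replicate 1 (-3.13, adjusted p = 0.016).

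**Figure D4:**
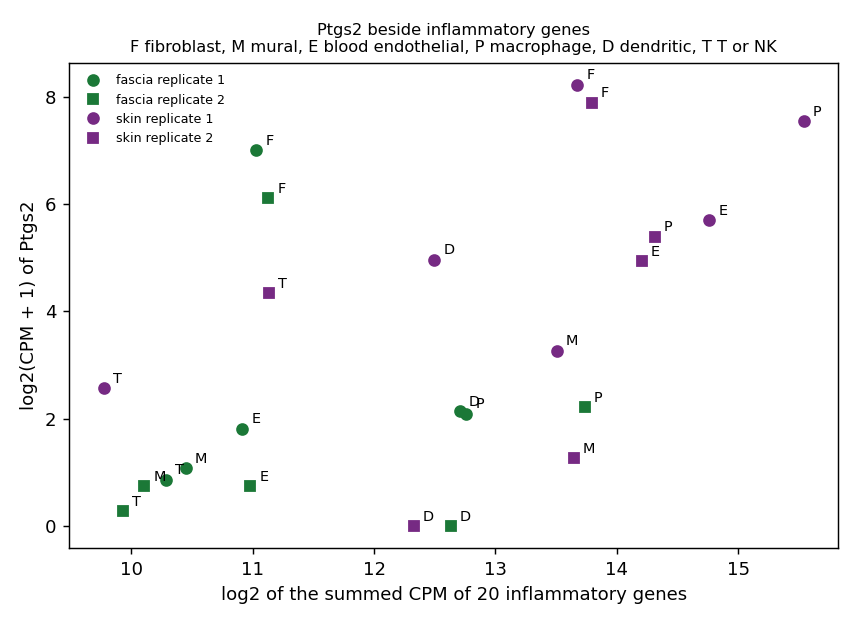
Ptgs2 level, log2(CPM + 1), against the log2 summed CPM of 20 inflammatory genes in each class and library, fascia in green and skin in purple. Skin fibroblasts, mural cells, blood endothelial cells and macrophages lie to the right of and above the fascia points of the same class. In dendritic or Langerhans cells the Ptgs2 levels of the 2 tissues overlap.

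Immediate early genes and inflammatory genes often induced with Ptgs2 were read beside these differences. In fibroblasts, 11 of 17 tested inflammatory genes were called lower in fascia and 0 higher, with a list median of -3.65 against 0.04 for all genes. Their summed level was 2091 and 2238 CPM in fascia, against 13080 and 14196 CPM in skin. In blood endothelial cells 12 of 15 were called lower and 0 higher (median -4.67), at 1932 and 2023 CPM in fascia against 27749 and 18875 CPM in skin. In macrophages or monocytes 2 of 14 were called lower (median -1.37), at 6930 and 13653 CPM in fascia against 47559 and 20325 CPM in skin. Of all genes, 7.16% were called lower in fibroblasts, 13.1% in blood endothelial cells and 2.97% in macrophages or monocytes.

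The lists were also read in the other compared classes. EdgeR tested Ptgs2 in mural cells without calling it, and filtered it out in dendritic or Langerhans cells and T or NK lymphocytes. In these lymphocytes Ptgs2 had 0.818 and 0.211 CPM in fascia, against 4.93 and 19.2 CPM in skin, on 2 and 13 skin UMIs. DESeq2 called it (1282 of 11840 genes there). Keratinocyte markers there were at 6.13% and 23.6% of their keratinocyte level in skin. That share of the keratinocyte Ptgs2 level comes to 2.19 and 23.1 CPM. In skin replicate 1, mast markers in these lymphocytes were at 1.15% of their mast cell level. That share of the mast cell Ptgs2 level comes to 48.2 CPM, above the level seen. The part of free RNA from either source was not tested. In mural cells 12 of 15 inflammatory genes were called lower and 1 higher (median -3.14), against 9.85% and 5.77% of all genes. The list summed to 1398 and 1103 CPM in fascia, against 11620 and 12807 CPM in skin. Ptgs2 in mural cells had 1.11 and 0.671 CPM in fascia, against 8.66 and 1.41 CPM in skin, on 4 and 2 skin UMIs (log2 change -2.39, SE 1.00, edgeR adjusted p = 0.15). In skin replicate 1, mast markers in mural cells were at 0.132% of their mast cell level. That share of the mast cell Ptgs2 level comes to 5.56 CPM, and its part was not tested. In dendritic or Langerhans cells 3 of 13 inflammatory genes were called lower and 1 higher (median -0.67), against 6.40% and 2.80% of all genes. In T or NK lymphocytes 2 of 11 were called lower and 1 higher (median -0.45), against 10.7% and 7.08% of all genes.

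Among the inflammatory genes, Il6, an inflammatory cytokine, had 2.51 and 3.47 CPM in fascia blood endothelial cells, against 1486 and 1317 CPM in skin. Cxcl1, a chemokine that draws neutrophils, had 35.0 and 88.8 CPM in fascia fibroblasts, against 2306 and 3838 CPM in skin. Of 24 tested immediate early and dissociation genes, 12 were called lower in fascia fibroblasts, 8 lower and 2 higher in blood endothelial cells, and 7 lower in macrophages. In mural and dendritic or Langerhans cells 13 and 10 of 24 were called lower, and in T or NK lymphocytes 9 of 22. Of all genes, 7.16% were called lower in fibroblasts, 13.1% lower and 8.26% higher in blood endothelial cells, and 2.97% lower in macrophages. The shares called lower were 9.85%, 6.40% and 10.7% in mural, dendritic or Langerhans and T or NK cells. Fos, a transcription factor induced within minutes of stimulation, had 367 and 592 CPM in fascia fibroblasts, against 2976 and 5793 CPM in skin. The part of these responses in the Ptgs2 differences was not tested, and tissue handling and tissue cannot be told apart here.

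Ptgds, the enzyme that makes prostaglandin D in many tissues outside mast cells, lay in different cells in the 2 skin libraries. The 120 melanocytes of skin replicate 2 had 1200 CPM, and they held 423 of the library's 484 UMIs. No other library had 20 melanocytes, and in skin replicate 1 keratinocytes held 132 of the 133 UMIs. Keratinocytes had 2.15 and 0.95 CPM in skin, with 11.1 and 8.51 CPM in cluster 15, led by Cst6, Sprr1a and Krt79. Over all cells Ptgds had no UMI and 0.129 CPM in fascia, against 1.66 and 6.33 CPM in skin (log2 change -6.20, SE 1.44, edgeR adjusted p = 0.029). The call was lost without skin replicate 1 (adjusted p = 0.052), skin replicate 2 (0.086) or fascia replicate 1 (0.055).

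Hpgd, the dehydrogenase that inactivates prostaglandins, had like levels in the 2 tissues in the clusters named as fibroblasts. These leave out the mixed cluster 14, described below, for which fibroblast was the best-scoring class. It had 22.0 and 23.7 CPM in fascia fibroblasts, against 20.2 and 36.6 CPM in skin fibroblasts (log2 change -0.63, SE 0.24, edgeR adjusted p = 0.16). The tissues overlapped. By the per-cell marker gate in place of clusters, the change was -2.88 with an adjusted p of 0.030.

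The largest Hpgd level lay in a skin cluster with no name. Cluster 14, led by Coch, Kcnd2, Dcc, Lrrc15, Asip and Crabp1, with both fibroblast and other markers, had 669 and 184 CPM in skin, on 203 and 651 cells. It held 1179 of the 1995 Hpgd UMIs of skin replicate 1 and 441 of the 1100 of skin replicate 2. Sebocytes had 20.4 and 13.7 CPM. T or NK lymphocytes had no UMI in skin replicate 1 and 34.0 CPM in skin replicate 2, on 23 UMIs. Over all cells Hpgd had 11.1 and 3.94 CPM in fascia, against 24.9 and 14.4 CPM in skin (log2 change -1.61, SE 0.61, edgeR adjusted p = 0.096). DESeq2 called this change, as did edgeR without fascia replicate 1 (-2.60, adjusted p = 0.040).

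**Figure D5:**
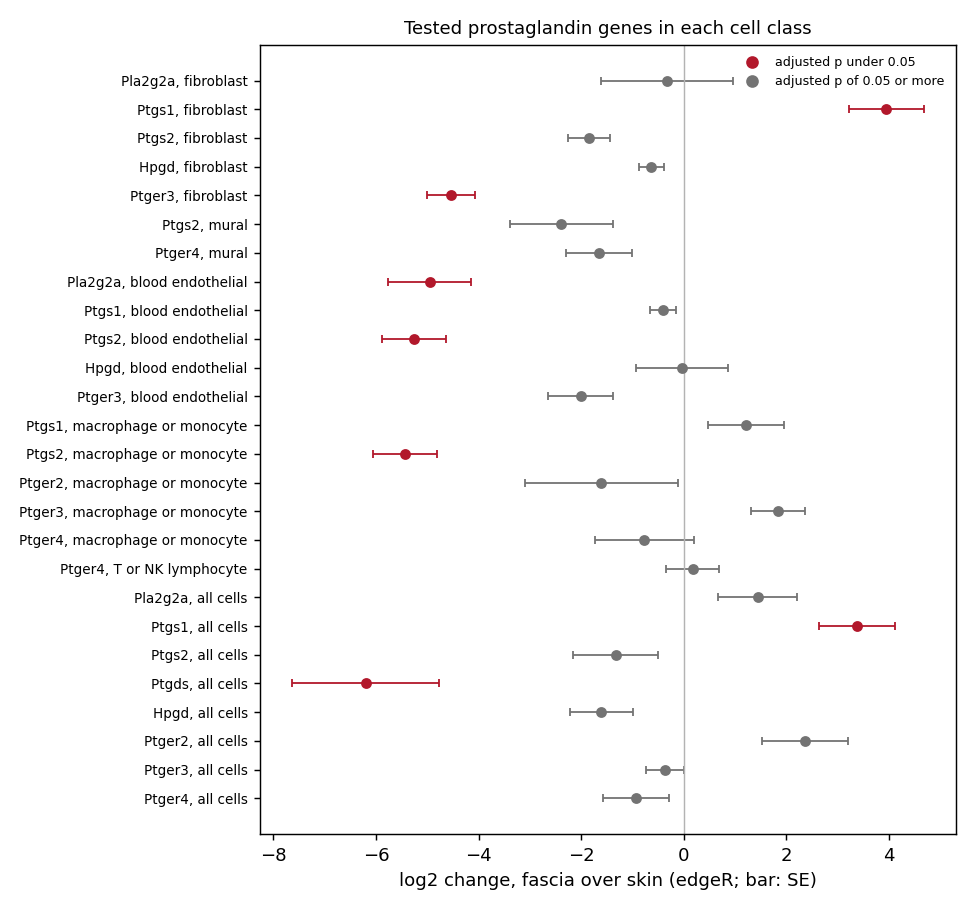
log2 change, fascia over skin, of each gene that passed the filter on low counts and had UMIs in both tissues, by class (edgeR, point: estimate, bar: SE). Red points have an adjusted p under 0.05: Ptgs1 is higher in fascia in fibroblasts and over all cells, and the other 5 red points are lower in fascia.

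Ptger3, the receptor of prostaglandin E that couples to the inhibitory G protein, differed between tissues in fibroblasts. It had 0.720 and 1.21 CPM in fascia fibroblasts, against 10.9 and 23.5 CPM in skin fibroblasts. The tissues did not overlap, and the log2 change was -4.54 (SE 0.46, edgeR adjusted p = 0.018). The call was lost without fascia replicate 1 (-4.08, adjusted p = 0.10) and without fascia replicate 2 (-4.88, adjusted p = 0.051), fits that called 0 of 12053 and 63 of 11993 genes. In cluster 11 it had 3.42 and 4.18 CPM in fascia, against 17.8 CPM in skin replicate 2. Skin keratinocytes had 5.81 and 11.2 CPM, and the unnamed skin cells 40.5 and 29.1 CPM. Keratinocyte markers in skin fibroblasts were at 1.25% and 4.66% of their level in skin keratinocytes. That share of the keratinocyte Ptger3 level comes to 0.0725 and 0.523 CPM. The part of free RNA in the fibroblast change was not tested beyond these values.

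In macrophages or monocytes Ptger3 stood the other way round, with 73.7 and 46.8 CPM in fascia, against 9.88 and 23.4 CPM in skin. The log2 change of 1.83 (SE 0.53, edgeR adjusted p = 0.096) did not pass the test, and the skin values rested on 4 UMIs each. Fascia cluster 7 had 79.9 and 65.5 CPM. Within cluster 20, which both tissues shared, Ptger3 had 18.0 and 10.2 CPM in fascia, against 10.1 and 23.4 CPM in skin, and the log2 change was -0.52 (SE 0.67, edgeR adjusted p = 0.67). Of the skin cells outside the tested classes, cluster 14 had 69.2 and 66.0 CPM, and keratinocyte cluster 5 had 20.8 and 23.8 CPM.

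Ptger4, a receptor that couples to the stimulatory G protein and raises cyclic AMP, had its highest mean level among the 6 compared classes in T or NK lymphocytes in both tissues. These had 10.2 and 14.2 CPM in fascia, against 14.8 and 7.40 CPM in skin (log2 change 0.18, SE 0.52, edgeR adjusted p = 0.84), and the tissues overlapped. Their skin levels rested on 6 and 5 UMIs, and in skin replicate 2 fibroblasts were close, at 6.04 CPM. Macrophages or monocytes followed in fascia, with 2.54 and 4.73 CPM, against 4.94 and 5.86 CPM in skin, on 2 and 1 skin UMIs. In the unnamed fascia cluster 29, led by Il2ra, Ctnna2 and Il1rl1, it had 43.6 and 16.3 CPM. In mural cells it had 2.08 and 1.87 CPM in fascia, against 2.17 and 5.63 CPM in skin (log2 change -1.65, SE 0.64, edgeR adjusted p = 0.12).

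Ptger2, the other receptor of this set that raises cyclic AMP, was near the limit of detection, with 29 and 91 UMIs in the fascia libraries, against 6 and 13 in the skin libraries. It was at or under 7.40 CPM in every class and library. Mural cells held 11 and 38 of the fascia UMIs and none of the skin UMIs. At 0.764 and 1.82 CPM these fascia levels lay below the 6.50 and 2.11 CPM that 3 counts would have given in skin. Over all cells the log2 change was 2.35 (SE 0.84, edgeR adjusted p = 0.082), and DESeq2 called it. In fibroblasts Ptger2 stood the other way round, with 0.0240 and 0.0867 CPM in fascia, against 0.695 and 1.42 CPM in skin, on 1 and 1 UMIs against 3 and 4. It did not pass edgeR's filter there, and DESeq2 called it.

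The difference between fascia and skin was then compared between cell classes, in a model with a term for each library. For Ptger3, the change in fibroblasts minus that in macrophages or monocytes was -6.56 (SE 0.59, edgeR adjusted p = 0.0083), 1 of 7 genes called in that pair of classes against 1.54% of all genes. Against T or NK lymphocytes, where Ptger3 had 4.50 and 5.91 CPM in fascia and 7.39 and 4.44 CPM in skin, the difference was -4.37 (SE 0.72, adjusted p = 0.028, with 3.60% of genes called). These lymphocyte levels rested on 11 and 28 UMIs in fascia and 3 and 3 in skin. Ptger3 did not pass the filter in this class alone and entered the comparison through the fibroblast counts. For Ptgs2, the change in fibroblasts minus that in blood endothelial cells was 3.42 (SE 0.39, adjusted p = 0.017; 4.00% called), and without the library term the adjusted p was 0.070. Ptgs1 differed by 6.89 (SE 1.45, adjusted p = 0.028, with 3.80% of genes called) between fibroblasts and dendritic or Langerhans cells. Without the library term the adjusted p was 0.093. The dendritic class had 1 and 9 UMIs in fascia and 6 and 0 in skin, and Ptgs1 did not pass the filter there. It too entered through the fibroblast counts, so the value is no separate evidence on the dendritic class. No gene was called against mural cells (4.83% of genes called), where 2 of 7 had an unadjusted p under 0.05 in edgeR, the one tool used for this comparison.

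The share of cells with a UMI was also read, in cells thinned to 2000 UMIs, with mural cells as the background. Ptgs1 was seen in 23.6% (95% exact binomial interval 21.9 to 25.3%) and 7.56% (5.71 to 9.77%) of fascia fibroblasts, against 0.952% (0.197 to 2.76%) and 1.06% (0.289 to 2.69%) of skin fibroblasts. Without thinning the shares were 68.3% and 37.9% in fascia, against 4.63% and 2.81% in skin. In mural cells thinned shares were 0.319% and 0.206% in fascia and 0 of 73 and 0 of 267 cells in skin, with upper bounds of 4.93% and 1.37%. The skin fibroblast shares lay below these bounds and were not told apart from background. Median depths were 16907.5 and 16299 UMIs in fascia fibroblasts, 12599 and 6119 in skin fibroblasts, 10706 and 9805.5 in fascia mural cells, and 5991 and 4822.5 in skin mural cells.

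Ptgs2 was seen in 16.5% and 7.85% of thinned fascia fibroblasts, against 18.7% and 21.7% of skin fibroblasts, and in 87.1% (76.1 to 94.3%) of 62 thinned skin mast cells. Unthinned shares in fibroblasts were 49.3% and 25.0% in fascia, against 34.9% and 34.7% in skin, so the order of fascia replicate 1 and skin depended on depth. Ptger3 was seen in 13.4% and 7.71% of thinned fascia macrophages or monocytes, against 0 of 41 and 3 of 31 in skin. Mural cells had Ptgs2 shares of 0.239% and 0.0514% in fascia, against 0 of 73 and 1 of 267 cells in skin. Their Ptger3 counts were 0 of 1254 and 2 of 1945 cells in fascia, against 0 of 73 and 0 of 267 in skin. Macrophages or monocytes had median depths of 11585 and 9894 UMIs in fascia, against 9226.5 and 4579 in skin, and the mast cells 4122. Intervals cover counting error only. Left out as shallower than 2000 UMIs were 18 and 30 fascia and 9 and 49 skin fibroblasts.

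Other genes of the prostanoid pathway were read from a list of 38, of which 30 were matched. In fibroblasts 17 were tested, 2 were called higher and 1 lower in fascia, with a list median of -0.14 against 0.04 for all genes. Of all genes tested in fibroblasts, 3.04% were called higher and 7.16% lower. Ptgfr, the receptor of prostaglandin F, had 0.360 and 0.433 CPM in fascia fibroblasts, against 57.2 and 36.2 CPM in skin fibroblasts (log2 change -7.32, SE 0.51, edgeR adjusted p = 0.013). Pla2g4a, the cytosolic phospholipase that frees arachidonic acid inside the cell, had 86.1 and 48.4 CPM in fascia, against 12.5 and 13.1 CPM in skin (2.02, SE 0.34, adjusted p = 0.035). Akr1c3, an aldo-keto reductase whose human namesake makes prostaglandin F, had 376 and 314 CPM in fascia, against 2.09 and 21.3 CPM in skin (4.69, SE 0.91, adjusted p = 0.044). It was among the top genes of clusters 2 and 33. Cluster 2 held 1915 and 457 fascia cells and 0 and 1 skin cells, and cluster 33 held 71 and 66 fascia cells and no skin cells. The fibroblast changes thus compare cells of partly different clusters. Slco2a1, the prostaglandin uptake carrier, had 24.0 and 29.6 CPM in fascia fibroblasts, against 0.464 and 25.2 CPM in skin, where the tissues were close apart from skin replicate 1.

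In blood endothelial cells 16 of the 38 were tested, 1 was called higher and 3 lower (median 0.27 against 0.08 for all genes). Of all genes tested there, 8.26% were called higher and 13.1% lower. Skin cells of this class lay mostly in cluster 23 (121 of 147 and 441 of 462), which held no fascia cells. Slco2a1 had 14.5 and 22.1 CPM in fascia, against 22.0 and 67.3 CPM in skin (log2 change -1.69, edgeR adjusted p = 0.042), although the libraries overlapped in CPM. Ptges3, a co-chaperone that also has prostaglandin E synthase activity, was called lower in fascia in blood endothelial, mural and T or NK cells, by 1.11, 0.99 and 0.94 on the log2 scale. Zadh2, a reductase of a prostaglandin breakdown product, was called higher in fascia blood endothelial cells, with 30.9 and 29.1 CPM, against 6.45 and 8.75 CPM in skin. Akr1b8, an aldo-keto reductase, was called lower there (log2 change -2.79) and higher in fascia mural cells (1.72). In mural cells 15 were tested, 3 were called higher and 1 lower, Akr1b1 (1.69) and Akr1c14 (1.87) among the higher. Of all genes in mural cells, 5.77% were called higher and 9.85% lower. The mural cells lay mostly in cluster 4 in fascia (874 of 1264 and 1241 of 1980), against cluster 9 in skin (57 of 77 and 241 of 280).

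In macrophages or monocytes 13 of the 38 were tested and 1 was called higher (median 0.59 against 0.22 for all genes, of which 0.922% were called higher). This was Pla2g2d, a secreted phospholipase of the same family as Pla2g2a, with 620 and 454 CPM in fascia, against 156 and 111 CPM in skin (log2 change 1.74, SE 0.38, edgeR adjusted p = 0.047). Cluster 7 held 858 of 967 and 697 of 1109 fascia cells of this class, and 1 and 0 skin cells. The macrophage changes thus compare cells of mostly different clusters. Tbxas1, the thromboxane synthase, was highest in this class, with 433 and 515 CPM in fascia, against 220 and 135 CPM in skin. Pla2g4a had 133 and 104 CPM in fascia macrophages, against 44.5 and 46.8 CPM in skin. Hpgds, the prostaglandin D synthase of blood-derived cells, had 597 CPM in skin mast cells and 18.5 and 32.3 CPM in fascia macrophages, against 180 and 23.4 CPM in skin macrophages.

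In T or NK lymphocytes 7 were tested and 2 were called lower, against 10.7% of all genes. Cluster 35 held 44 of 86 and 70 of 177 skin cells of this class and none of the fascia cells, so the changes in this class compare cells of partly different clusters. One was Hpgds, with no UMI and 0.634 CPM in fascia, against 32.0 and 8.88 CPM in skin (log2 change -5.38, edgeR adjusted p = 0.010). There 9 mast markers summed to 4.09 and 10.6 CPM in fascia, against 150 and 54.8 CPM in skin, and the part of mast cell RNA in the Hpgds change was not tested. Ptgir, the prostacyclin receptor, was low in every class, at most 4.92 CPM, in skin mural cells of replicate 2, against 1.04 and 1.97 CPM in fascia mural cells.

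The leukotriene pathway, the other main route from arachidonic acid, was read from 17 genes, of which 14 were matched. In macrophages or monocytes 6 were tested and 2 were called higher in fascia, against 0.922% of all genes. These changes, too, compare cells of mostly different clusters, as cluster 7 held most fascia cells and 1 and 0 skin cells. Alox5, the enzyme that starts leukotriene synthesis, had 213 and 174 CPM in fascia, against 32.1 and 17.6 CPM in skin (log2 change 2.59, SE 0.41, edgeR adjusted p = 0.017). Ltc4s, the leukotriene C synthase, had 1215 and 586 CPM in fascia, against 12.4 and 82.0 CPM in skin (4.33, SE 0.72, adjusted p = 0.020). In fibroblasts 5 were tested and 1, Dpep1, a dipeptidase that acts on leukotriene D, was called lower, against 7.16% of all genes. It had 67.5 and 85.0 CPM in fascia, against 221 and 303 CPM in skin (-2.12).

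In blood endothelial cells 7 were tested and Alox5ap, the partner protein of Alox5, was called higher in fascia (3.66), on 70 and 149 UMIs in fascia against 0 and 2 in skin. In mural cells 4 were tested and Mgst2, a microsomal transferase, was called lower (-2.33). In T or NK lymphocytes 5 were tested, with Cysltr2, a receptor of cysteinyl leukotrienes, called higher (1.85) and Aloxe3, an epidermal lipoxygenase, called lower (-4.73). Of all genes, 8.26% were called higher in blood endothelial cells and 9.85% lower in mural cells. The shares in T or NK lymphocytes were 7.08% higher and 10.7% lower. Keratinocyte markers in these lymphocytes summed to 22.9 and 42.9 CPM in fascia, against 2363 and 9650 CPM in skin, and their part in the Aloxe3 change was not tested. In dendritic or Langerhans cells 9 prostanoid and 4 leukotriene genes were tested and edgeR called none. There Akr1b1, Pla2g2d, Ptges3, Abcc4, Zadh2, Mgst2, Lta4h and Dpep2 (8 genes) had an unadjusted p under 0.05, and DESeq2 called Akr1b8, Ptges3 and Aloxe3 (3 genes).

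Over all cells, 25 of the 38 prostanoid genes were tested, and 6 were called higher and 6 lower in fascia. Of all genes, 19.4% were called higher and 18.9% lower. Of 13 leukotriene genes 6 were higher and 4 lower. The 5 largest changes were those of the genes below, which had their highest levels in single cell classes. Pla2g2f and Ltb4r2, found mostly in keratinocytes, and Alox12e, highest in sebocytes, had at most 2 UMIs in either fascia library, against 4.56 and 7.12, 1.44 and 1.61, and 11.4 and 8.74 CPM in skin. Alox5 and Pla2g2d, highest in macrophages or monocytes, had 32.2 and 27.8 CPM and 107 and 84.7 CPM in fascia, against 0.612 and 0.340 CPM and 2.05 and 1.27 CPM in skin.

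The genes whose pattern over 36 class-by-library sums was most like each gene were ranked by Pearson's r of log2(CPM + 1) among 10996 genes with a level of at least 20 CPM in some sum. The sums share libraries and depth, and the r values are a description. Unnamed clusters are not among the sums, so the rankings do not cover cluster 14, where the largest Hpgd level lay. For Ptgs1 these were Npr1 (0.85), Hid1 (0.84) and RGD1304884 (0.83), for Ptgs2 Cxcl14 (0.80), Klf4 (0.75) and Dio2 (0.74), and for Pla2g2a Calml4 (0.82), Gsta1 (0.82) and Aox1 (0.79). For Ptgds they were Slc45a2, Gjb1 and Cdh19 (each 0.98), on the strength of the single melanocyte sum, and Slc45a2 is a pigment cell marker. For Hpgd they were Adh7 (0.85), Kazald1 (0.83) and Sh2d4a (0.83), and for Ptger3 Mob3c (0.72), Tlr5 (0.69) and Sh3bp2 (0.68). Between Ptgs1 and Ptgs2 themselves r was 0.17, and the closest pair among the 6 genes ranked here was Ptgs2 and Hpgd (0.57).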

How the data were processed

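The authors deposited raw UMI counts, made with Cell Ranger 6.0.1 and STAR, per the submitters' processing notes. Version 7.0.0 stands in the header of the matrices. The build was mRatBN7.2, per those notes, and whether intron reads were counted is not given in the sources used here. Of 30560 genes, 7162 have no symbol. From these counts, barcodes under 500 genes or over 20% mitochondrial UMIs were dropped, and doublets were removed (210 and 188 marked by Scrublet in fascia, and the 445 and 2163 highest scores in skin, where Scrublet marked 0 and 1). Library totals were 95777810 and 83852172 UMIs in fascia and 88334062 and 85165728 in skin.

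Cells were clustered with scanpy 1.11.5 and leidenalg 0.10.2 (2000 variable genes, 30 components, resolution 1) without 55 pathway genes. Clusters were named from listed markers, by naming thresholds set after the clusters were seen, and shares of unnamed cells are given in the text. UMIs were summed per class and library, with at least 20 cells, and tested in R 4.3.3 with edgeR 4.0.16 (quasi-likelihood, TMM, filterByExpr, adjusted p threshold 0.05), with DESeq2 1.42.0 as an alternative. Differences between classes were interaction terms with library as a term. The exact permutation test of 2 against 2 libraries cannot go below p = 0.333, so none is given. Shares were read in cells thinned to 2000 UMIs with exact binomial intervals. On simulated data the test found 78.1% of fibroblast genes changed by 2 on the log2 scale, among 12104 genes tested. It found 57.5% in macrophages or monocytes, among 10889, and 62.6% over all cells, among 17569. The simulated spread followed the trend over genes, without any gene's own spread or differences in clusters between libraries. These shares thus do not give the power for a single gene here.

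The genes and lists were chosen with earlier results of these data known. Named genes were the members, up to 5 called pathway genes per class by size of change, the pathway neighbours Pla2g4a, Hpgds, Tbxas1, Ptgir, Ptgfr and Slco2a1, and the 3 most correlated genes per member. Alternatives covered tool, scaling, filters, doublets, clustering, a marker gate, the replicate number and each library left out.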

Additional observations from a re-analysis of the deposited data

Results flagged for a closer look

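Of the 5 pairs of classes compared, 4 held a gene whose change between fascia and skin differed between the classes in the edgeR interaction test. For Ptger3, the change in fibroblasts minus that in macrophages or monocytes was -6.56 on the log2 scale. Minus that in T or NK lymphocytes, with 3 and 3 UMIs there in skin, it was -4.37. The macrophage change behind the first of these was 1.83 in the whole class and -0.52 within cluster 20, the one macrophage cluster that both tissues shared by more than 1 cell, while cluster 7 held 858 of 967 and 697 of 1109 fascia cells and 1 and 0 skin cells. For Ptgs2, fibroblasts minus blood endothelial cells gave 3.42 (adjusted p = 0.017, and 0.070 without the library term). For Ptgs1, fibroblasts minus dendritic or Langerhans cells gave 6.89 (adjusted p = 0.028, and 0.093 without the library term). The dendritic class had 1 and 9 UMIs in fascia and 6 and 0 in skin. Neither Ptgs1 in dendritic or Langerhans cells nor Ptger3 in T or NK lymphocytes passed the filter in that class alone. Both entered these comparisons through the fibroblast counts.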

How the results depend on the processing

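The calls of Pla2g2a and Ptgs2 in blood endothelial cells held under all 17 alternatives run, and those of Ptgs1 and Ptger3 in fibroblasts under 14 and 15 of 17. DESeq2 called 4 genes in fibroblasts, 2 in macrophages or monocytes, 1 in T or NK lymphocytes and 4 over all cells, against 2, 1, 0 and 2 by edgeR. Over all genes DESeq2 called 2295, 968, 1282 and 8098 in these classes, against 1264, 439, 1727 and 6816 by edgeR. With no filter on low counts, 5 were called in fibroblasts, 2 in dendritic cells, 2 in T or NK lymphocytes and 0 in macrophages, where Ptgs2 stood at -5.40 (adjusted p = 0.30). That setting called 3318 of 19769 genes in fibroblasts, 1866 of 17216 in dendritic cells, 2850 of 17828 in T or NK lymphocytes and 0 of 17965 in macrophages by edgeR, with 2528 macrophage genes at an unadjusted p under 0.05. With at least 1000 genes per barcode, 1 was called in dendritic and 1 in mural cells, and with at least 200, 1 in mural cells. Leiden resolution 0.5 gave 1 call in mural cells and 2 in macrophages, and resolution 2.0 gave 1 in dendritic cells and 2 in macrophages. Mural cells had 1 call with the pathway genes kept in clustering and 2 by the marker gate. Over all genes these settings called 2000 to 2172 in mural cells, against 1962 with the settings of the report, 3070 and 3086 in dendritic cells, against 792, and 873 and 925 in macrophages, against 439. The cause of these changes was not tested.

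Signs reversed for uncalled genes. Ptgs1 in blood endothelial cells was 0.35 with doublets kept and 0.21 at resolution 2.0. Hpgd there was 0.021 by DESeq2, 0.079 with no filter, 0.80 in cells of at least 2000 UMIs and 0.56 at resolution 2.0. Pla2g2a in fibroblasts was 0.45 by the marker gate, and Ptger3 in macrophages was -0.52 in the shared cluster alone, an alternative chosen after seeing the data. Without the library term, the differences between classes were 3.42 for Ptgs2 (adjusted p = 0.070), 7.51 for Ptgs1 against dendritic cells (0.093) and 0.17 for Pla2g2a against mural cells.

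With 1 library left out, between 0 and 2 genes were called in fibroblasts, T or NK lymphocytes and dendritic cells, 0 and 1 in macrophages, and 0 and 3 over all cells. Calls over all genes in these fits ranged from 0 of 12053 to 2737 of 13436 in fibroblasts, 506 to 3094 in T or NK lymphocytes, 146 to 3305 in dendritic cells, 127 to 895 in macrophages and 2945 to 4526 over all cells. Log2 changes then ranged from 2.78 to 4.58 for Ptgs1, -4.88 to -4.08 for Ptger3 and -1.64 to 2.72 for Pla2g2a in fibroblasts, and from -6.09 to -3.65 for Ptgs2 and -2.24 to 6.31 for Ptger2 in macrophages. Over all cells they ranged from 2.18 to 4.05 for Ptgs1, -11.4 to -4.99 for Ptgds and -0.76 to 0.13 for Ptger3. They ranged from -0.72 to 1.75 for Hpgd in blood endothelial cells and from -0.24 to 0.61 for Ptger4 in T or NK lymphocytes. The lone library of a tissue is assumed to vary like the other tissue's. Differences between classes and shares of cells were not recomputed this way.

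The labels do not say that replicate numbers pair the libraries, and same-numbered libraries deviated together with r between -0.14 and 0.09. With the replicate block, 3 genes were called in macrophages, Ptgs2 in fibroblasts was called (adjusted p = 0.032), Pla2g2a in fibroblasts was 0.40, and calls over all genes were 814 in fibroblasts and 911 in macrophages, against 1264 and 439 without it. With the numbers crossed, 2 genes were called in macrophages and 0 over all cells. Over all genes that setting called 729 of 11285 in macrophages and 6260 of 17805 over all cells. Depth limits the small skin classes: 3 counts are 7.41 and 17.6 CPM in skin macrophages and 5.66 and 23.6 CPM in skin dendritic cells.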
